A study of Homo sapiens with 3 samples.

Results

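The genes described here are 10 genes of the ETS and GABP families, namely GABPA, GABPB1, GABPB2, ELF1, ELF2, ELK1, ELK4, ETS1, ETS2 and ETV4. They were listed by name as candidate readers of C[C/A]GGAAG, the consensus that the study assigned to ZBTB11, in which the bracketed base is C or A. They were 10 of the 20033 protein-coding genes annotated on chromosomes 1 to 22, X and Y. The data are chromatin immunoprecipitation sequencing (ChIP-seq) of NCI-H1299 cells, a human line established from a lung cancer, of WT genotype, untreated and fixed with formaldehyde. One library was made with an antibody against ZBTB11, which carries a BTB domain and zinc fingers, and one with IgG as the negative control. Of the Input sample nothing was analysed here. Each antibody has 1 library, so no difference below has a replicate check and no test across samples was possible.

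ETS factors share the ETS domain, a winged helix fold that reads GGAA in DNA, and the bases around GGAA set the preference of each factor. GABP is made of an alpha subunit, GABPA, which carries the ETS domain, and a beta subunit, GABPB1 or GABPB2, which does not bind DNA itself and adds the activation function. GABP is known for the promoters of nuclear genes for mitochondrial and ribosomal proteins. The data do not measure these proteins. They show where ZBTB11 was found at the genes that encode them.

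Each peak is described by the number of fragments stacked at its highest point, the summit. This summit pileup was solved from the deposited fold enrichment and p-value, together with the background expected there. The fold enrichment is the pileup over that background, with 1 added to both. Over the whole ZBTB11 list of 346891 peaks the median pileup was 5 fragments, the lowest was 3 and the genome-wide background was 1.35. The IgG list held 26712 peaks, on chromosomes 1, 10, 21 and Y only, with a median of 6 fragments, a lowest pileup of 4 and a background of 1.55. The intervals in brackets after a pileup or a rate are exact Poisson 95% intervals and account for counting error alone.

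The bases at these peaks are shown first, because the consensus lies away from most of the summits. All are read from hg38 in the direction of the gene. In the strongest peak of GABPA the consensus occurred 3 times, at chr21:25734895-25734923, chr21:25734982-25735010 and chr21:25735067-25735095. The sites are given with 11 bases on either side, and capitals mark the consensus, which reads CTTCCGG where CCGGAAG lies on the opposite strand.
GABPA, 115 bp upstream of the summit: cctccgctctaCTTCCGGccctggctccg
GABPA, 28 bp upstream of the summit: cgctcaccggaCAGGAAGcgtctcggaga
GABPA, 57 bp downstream of the summit: gagggtaagtgCTTCCGGgtcccctggca

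The strongest peaks of ELK4, ETS2 and ELF2 held the consensus farther out. The ELK4 sites are chr1:205631520-205631548 and chr1:205631307-205631335, both in an intron. The ETS2 sites are chr21:38805263-38805291 in a UTR and chr21:38805612-38805640 in an intron. Of the 6 ELF2 sites, the one nearest the summit is shown, at chr4:139083755-139083783 in an intron.
ELK4, 73 bp upstream of the summit: gcgcggcacaaCAGGAAGtgggggcgggg
ELK4, 140 bp downstream of the summit: ttctgtagtgaCAGGAAGttggaaaatga
ETS2, 139 bp upstream of the summit: cccggtttctaCAGGAAGcgcctcatttg
ETS2, 210 bp downstream of the summit: ggaaggttgggCCGGAAGgtgtcagcccc
ELF2, 818 bp upstream of the summit: tgctgaggaacCAGGAAGtgagtgaggct

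The remaining 6 genes had no consensus anywhere in their strongest peak. To show what such summits look like, the summit base with 50 bases on either side is given for ETV4 (chr17:43545733-43545833), GABPB2 (chr1:151070986-151071086), ETS1 (chr11:128522471-128522571) and ELF1 (chr13:41060133-41060233), together with ELF2 (chr4:139082901-139083001), whose consensus sites are distant. None of these windows touches an annotated UTR. Capitals mark the ETS core GGAA, which reads TTCC on the opposite strand.
ETV4: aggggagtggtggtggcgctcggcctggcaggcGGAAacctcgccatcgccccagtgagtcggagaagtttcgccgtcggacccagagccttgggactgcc
GABPB2: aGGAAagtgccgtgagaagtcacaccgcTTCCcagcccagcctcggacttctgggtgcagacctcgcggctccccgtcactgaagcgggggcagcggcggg
ETS1: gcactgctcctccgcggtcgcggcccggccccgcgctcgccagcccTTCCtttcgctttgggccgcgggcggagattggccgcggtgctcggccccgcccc
ELF1: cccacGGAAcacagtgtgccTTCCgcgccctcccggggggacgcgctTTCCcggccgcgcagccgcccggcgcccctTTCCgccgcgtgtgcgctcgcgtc
ELF2: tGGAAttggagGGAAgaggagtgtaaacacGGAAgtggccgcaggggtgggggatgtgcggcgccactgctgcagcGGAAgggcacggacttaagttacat

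To see whether ZBTB11 occupied the starts of these genes, peaks within 3 kb of any GENCODE transcript start were collected. All 10 genes had such a peak, and so did 87.7% of protein-coding genes, so this count says little about them. A strong peak, defined by a p-value not above 1e-05, was found at 9 of the 10 genes, against 46.9% of protein-coding genes. ELK1 was the exception. The genes were named with earlier results of these data known, so the excess over 46.9% is a description and not evidence of a preference for ETS genes. The median pileup of the strongest peak was 50.5 fragments over the 10 genes and 9 over all protein-coding genes, with genes without a peak at 0.

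**Figure D1:**
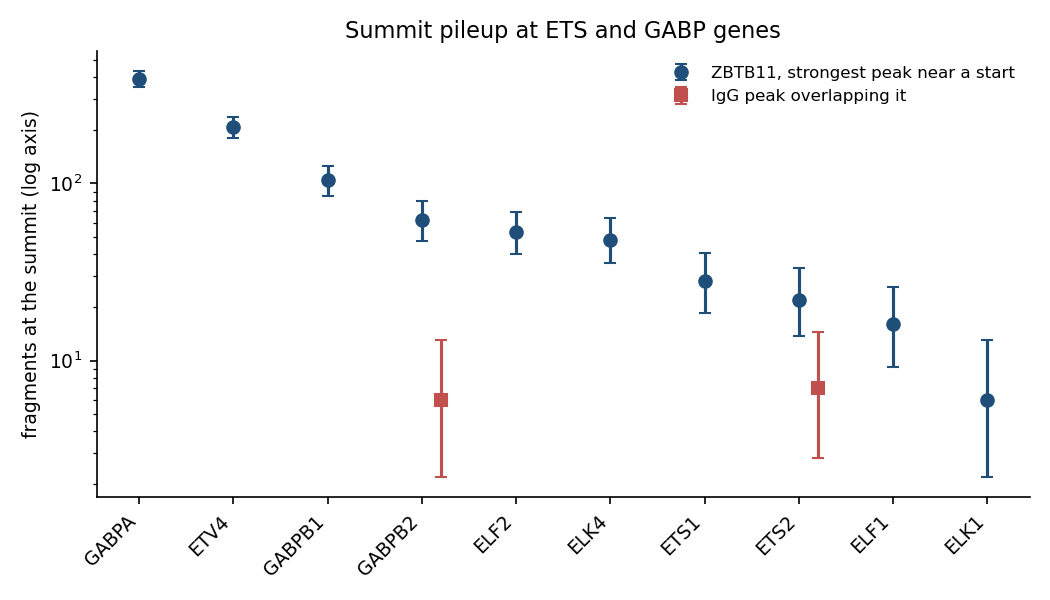
Fragments at the summit of the strongest ZBTB11 peak within 3 kb of a transcript start of each gene (circles, log axis), with exact Poisson 95% intervals, and of the IgG peaks that overlap it (squares, GABPB2 and ETS2 only). GABPA stands at 390 fragments and ELK1 at 6, while the IgG peaks stand at 6 and 7.

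The GABP subunits held 3 of the 4 highest pileups. GABPA, the DNA-binding subunit, had 390 fragments (352 to 431). With a background of 22.7 its fold enrichment was 16.5. Its peak ranked 347 in the whole list, and by this peak GABPA stood within the top 2.27% of protein-coding genes. GABPB1, the more widely studied beta subunit, had 104 fragments (85.0 to 126) over 7.69 and a fold enrichment of 12.1, at rank 1482. GABPB2, its paralogue, had 62 fragments (47.5 to 79.5) over 4.21 in the peak chr1:151070633-151071413, and its fold enrichment was also 12.1, at rank 2127. The pileup intervals of the 3 subunits did not overlap. Each subunit gene thus had a strong peak near a start, and the peak near GABPA had the most fragments. The peaks near GABPA and GABPB1 also cover starts of other genes, given below.

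ETV4, an ETS factor of the PEA3 group with known roles in invasion, came second with 208 fragments (181 to 238). It had the highest fold enrichment of the 10 genes, 20.5 over a background of 9.18, and ranked 610. Its interval overlapped neither that of GABPA nor that of GABPB1. The pileup at GABPA was 1.88 times that at ETV4, whereas the fold enrichment was lower at GABPA, because the background there was set higher. The order of these genes therefore depends on which quantity is read.

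The ELF genes encode widely expressed ETS factors. ELF2 had 53 fragments (39.7 to 69.3) and a fold enrichment of 6.76, in the widest peak of the 10 genes at 2193 bp. ELF1 had 16 fragments (9.15 to 26.0) and a fold enrichment of 5.12. ELK4 and ELK1 belong to the ternary complex factors, which bind DNA together with SRF and respond to MAP kinases. ELK4 had 48 fragments (35.4 to 63.6) and a fold enrichment of 10.4, whereas ELK1 had 6 fragments (2.20 to 13.1), a fold enrichment of 2.97 and a −log10 q of 0.724, which is a q-value above 0.05. Their intervals did not overlap. ETS1 and ETS2, the founding members of the family, had 28 fragments (18.6 to 40.5) and 22 fragments (13.8 to 33.3), with fold enrichments of 6.58 and 6.87. From GABPB2 downward, every pair of neighbours in the order had overlapping intervals. Overlap alone does not show that neighbouring counts are equal, and the pairs were not compared by a test.

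Next, the position of each peak relative to the annotated starts was examined. The summit of GABPA lay 52 bp downstream of a GABPA start, in a UTR, and 3 bp from a start of ATP5PF, which encodes a subunit of the mitochondrial ATP synthase and is transcribed in the opposite direction. The peak at chr21:25734645-25735975 covers both, so the list cannot assign it to either gene. The summit of GABPB1, in the peak chr15:50354454-50355615, lay 9 bp from a start of the lncRNA GABPB1-AS1 and 144 bp downstream of the nearest GABPB1 start. The GABPB2 summit lay 232 bp downstream of the nearest start, in an intron, and 711 bp from a start of CDC42SE1, which the peak did not cover. At GABPA and GABPB1 a start of another gene was thus closer to the summit than their own.

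ETV4 had its summit 70 bp upstream of the nearest start and 557 bp downstream of the MANE start, in the peak chr17:43545358-43546470. The MANE start is that of the transcript chosen as standard by RefSeq and Ensembl. A start of DHX8 lay 998 bp from the ETV4 summit, outside the peak. The ETS2 summit, in the peak chr21:38804772-38806220, lay 158 bp downstream of a start, in a UTR. The weak ELK1 peak, chrX:47650212-47650625, had its summit 59 bp downstream of a start, also in a UTR. That of ELK4, in the peak chr1:205631018-205631785, lay 432 bp downstream of the nearest start, in an intron. A further strong peak of ELK4 with 18 fragments (10.7 to 28.4) covered the MANE start, with its summit 157 bp upstream. The median distance from summit to nearest start was 184.5 bp over the 10 genes and 120 bp over the 7697 distinct strong peaks of protein-coding genes.

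**Figure D2:**
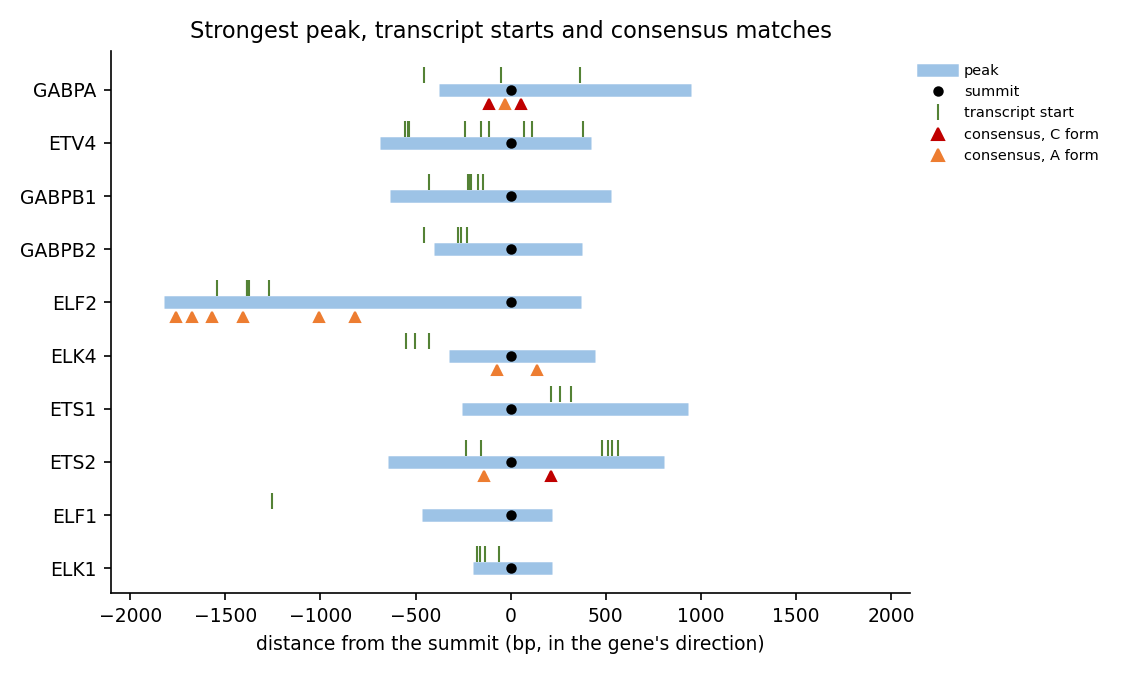
The strongest ZBTB11 peak of each gene (bar), its summit (circle at 0), GENCODE transcript starts (ticks above) and matches to C[C/A]GGAAG (triangles below, red for the form with C and orange for the form with A), by distance in bp in the direction of the gene. GABPA is the 1 gene with a match within 50 bp of the summit, and the 6 matches of ELF2 lie 818 to 1759 bp upstream.

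For ELF1, ELF2 and ETS1 the strongest peak did not lie at the MANE start. The ETS1 peak, chr11:128521590-128522778, lay 65037 bp inside the gene at an internal start, with the summit 211 bp upstream of that start, and it also covered the start of the microRNA gene MIR6090, which was closer to the summit, at 131 bp. At the MANE start of ETS1 the strongest peak had 6 fragments. The ELF2 peak, chr4:139082582-139084774, lay 94267 bp from the MANE start and covered a group of internal starts. Its summit lay 1273 bp downstream of the nearest of them. The MANE start itself had a peak of 9 fragments with a −log10 p of 5.21. ELF1 had no peak within 3 kb of its MANE start. Its strongest peak, chr13:41059965-41060647, lay 40867 bp upstream of that start and 1257 bp downstream of the most distal annotated start, and a second peak with 11 fragments covered that distal start as well as the start of the neighbour WBP4. This second peak was also strong, with a −log10 p of 5.12. Over MANE starts alone, 7 of the 10 genes had a strong peak, against 43.5% of the 19061 protein-coding genes with a MANE start.

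Most of the 10 genes have several annotated starts, and the peaks covered different shares of them. A strong peak lay within 3 kb of all 3 starts of GABPA, of 9 of the 11 starts of ETV4, of 7 of the 9 starts of ETS2 and of 7 of the 11 starts of ELF2. It lay near 6 of 9 starts of GABPB1, 4 of 6 of GABPB2, 3 of 5 of ELK4, 3 of 8 of ETS1 and 1 of 5 of ELF1. All 4 starts of ELK1 had a peak nearby, none of them strong. Altogether 20 peaks lay near the starts of the 10 genes, of which 12 were strong.

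**Figure D3:**
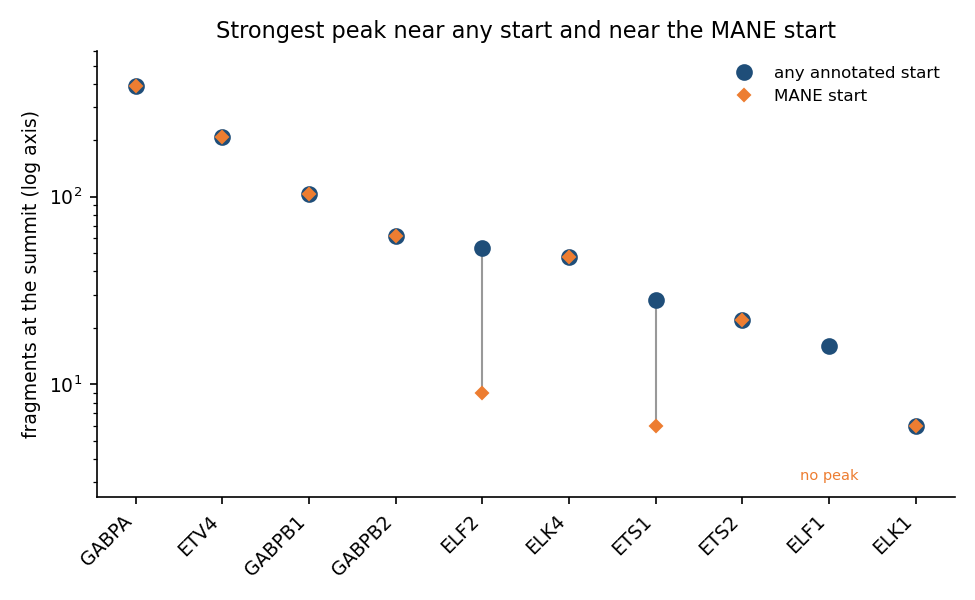
Fragments at the summit of the strongest ZBTB11 peak within 3 kb of any annotated start (circles) and of the MANE start (diamonds), log axis, for each gene. The values coincide for 7 genes, fall from 53 to 9 fragments for ELF2 and from 28 to 6 for ETS1, and no peak is listed at the MANE start of ELF1.

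The consensus was then searched on both strands within 50 bp of each summit. It was found at 1 of the 10 genes, GABPA, in the form CAGGAAG. Among protein-coding genes with a peak the share was 15.8%, and among those with a strong peak it was 25.2%. The share depended on the pileup. Counting each peak once, it was 5.13% (Wilson 95% interval 4.65% to 5.65%) for peaks of 3 to 9 fragments, 36.4% (33.5% to 39.4%) for 50 to 99 fragments and 44.1% (40.2% to 48.0%) for 200 or more. ETV4 and GABPB1, with 208 and 104 fragments, had no match in the summit window or in the whole peak.

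**Figure D4:**
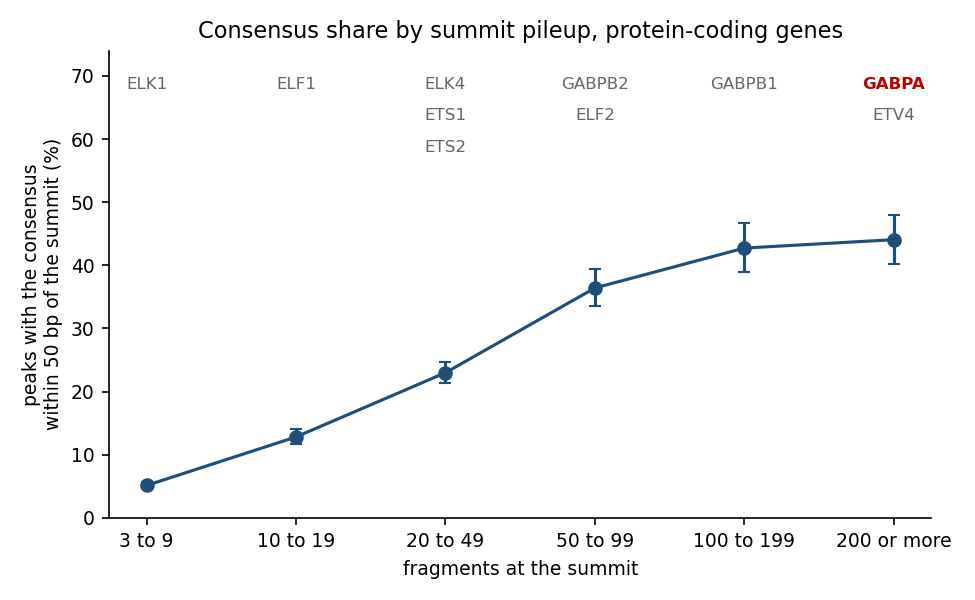
Share of the strongest peaks of protein-coding genes with C[C/A]GGAAG within 50 bp of the summit (in %, with Wilson 95% intervals) by the number of fragments at the summit, each peak counted once. The names show the class of each of the 10 genes, with GABPA, the gene with a match, in bold red. The share rises from 5.13% to 44.1%.

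Over the whole length of the strongest peaks there were 13 matches in 4 genes, of which 3 were of the form CCGGAAG and 10 of the form CAGGAAG. The GABPA peak held 2 of the CCGGAAG sites, on the strand opposite to the gene, and the CAGGAAG site between them. The starts of neighbouring sites were 87 and 85 bp apart. The third CCGGAAG site was that of ETS2. The nearest consensus lay 450 bp from the summit for ELK1, 945 bp for ETS1, 1469 bp for ETV4, 1620 bp for GABPB2, 1855 bp for GABPB1 and 9450 bp for ELF1. Of the 15435 distinct strongest peaks of protein-coding genes, 40.8% held the consensus somewhere in the peak. Among the 7697 strong ones the share was 61.9%. These peaks differ in width, and the median width was 1137.5 bp for the 10 genes and 857 bp for the strong peaks.

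The shorter core GGAA, which any ETS factor reads, lay within 50 bp of the summit at 8 of the 10 genes and at 80.1% of the strong peaks. ELK1 and ELK4 were those without it. GGGCGG, the site of SP factors, was found at 4 genes (ELF1, ELK1, ELK4 and ETS1) and at 33.4% of the strong peaks. CCGGAAGT, TGACGTCA (CREB factors), GCGCATGC (NRF1), AAGATGGCG (YY1) and ACTACAATT (ZNF143) were at 0 of the 10 summits, and they were at 7.18%, 0.559%, 0.611%, 1.03% and 0.117% of the strong peaks. In the RefSeq promoters, from 250 bases before the start to 50 after it (GRCh38.p14), 7 of the 10 genes had a sequence. The consensus occurred in 4 of them (GABPA, ELK4, ELF1 and ELF2) and in 21.8% of all 35116 promoters. The ELF1 promoter lies at a start far from the strongest peak. Its match lay 77242 bp from the summit, outside that peak, and a peak near that start had 4 fragments and was not strong. The ELF2 match lay inside the strongest peak, 1406 bp from the summit. The promoter of ELK4 held a CCGGAAG site 19 bp upstream of its start, which lies 569 bp from the summit of the strongest peak and outside that peak, but inside the second strong peak of ELK4, the one with 18 fragments. A match is a run of letters and not a measured site. The GC content of the summit windows had the same median, 68.3%, for the 10 genes and for the strong peaks.

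The IgG library offered a control for GABPA and ETS2 on chromosome 21 and for ELK4 and GABPB2 on chromosome 1. Of these 4 genes, 3 had an IgG peak within 3 kb of a start, against 67.3% of the 3074 protein-coding genes on the chromosomes with IgG peaks. All 7 of these IgG peaks had 4 to 8 fragments and a q-value above 0.05. Of the whole IgG list, 95.4% of peaks had a q-value above 0.05, so this is usual for the list. No IgG peak overlapped the strongest peak of GABPA or ELK4, where ZBTB11 had 390 and 48 fragments. At GABPB2 an IgG peak of 6 fragments overlapped the ZBTB11 peak of 62 fragments, a ratio of 10.3 (exact 95% interval 4.49 to 29.2), with the summits 89 bp apart. At ETS2 an IgG peak of 7 fragments overlapped the ZBTB11 peak of 22 fragments, a ratio of 3.14 (1.30 to 8.71), with the summits 79 bp apart. In number alone there were 5 ZBTB11 and 7 IgG peaks near these starts, a ratio of 0.714 (0.179 to 2.61), against 1.4996 (1.44 to 1.56) over protein-coding genes on the same chromosomes, a value within the interval of the 4 genes. The lists differ in their lowest pileup, and with peaks of at least 5 fragments these ratios were 0.833 (0.201 to 3.28) and 1.08 (1.04 to 1.13). The pileup ratios and peak number ratios come from 1 library per antibody, are not scaled for depth, and have intervals that cover counting error only, so they compare these libraries at these loci and not the antibodies. The other 6 genes lie on chromosomes without IgG peaks and have no control.

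Beyond 3 kb from their starts, the gene bodies held 52 ZBTB11 peaks in 558800 bp, or 9.31 per 100 kb (6.95 to 12.2). The rate over protein-coding genes was 11.9 per 100 kb (11.8 to 11.95), within the interval of the 10 genes. ETS1 had 15 such peaks, GABPB1 13, ELF2 9, GABPB2 6, GABPA and ELF1 4 each and ELK1 1. ELK4, ETS2 and ETV4 had 0, which allows up to 18.7, 29.9 and 10.2 per 100 kb. These peaks held 3 to 8 fragments, and 0 of them were strong, which allows up to 0.660 per 100 kb against 0.142 over protein-coding genes. The strongest by p-value, chr21:25768948-25769593 in a coding exon of GABPA, had 7 fragments, and it was the 1 peak among the 52 with a q-value of 0.05 or less. Over the whole ZBTB11 list, 92.3% of peaks had a q-value above 0.05. GABPA also had 2 IgG peaks in its gene body, and GABPB2 had 1. The strong ZBTB11 peaks at these genes were thus all within 3 kb of a start.

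Finally, the rest of the family was described for comparison. Of the 20 other ETS genes, 19 had a peak within 3 kb of a start and 7 (35.0%) had a strong one, against 46.9% of protein-coding genes. These were ETV2 with 110 fragments, ERF with 48, ETV3 with 46, ETV6 with 22, ELK3 with 18, and ETV1 and FLI1 with 16 each. ETV2, a factor of blood vessel development, was enriched 4.83-fold over a background of 21.98, while GABPB1 reached 12.1 at a similar pileup. ERF, ETV3 and ETV6 are known as repressors of the family. The other 12 genes with a peak had 3 to 8 fragments, and ELF3 had no peak. The median over the 20 genes was 5.5 fragments. The consensus lay within 50 bp of the summit at 3 of the 19 genes with a peak, namely ELK3, FLI1 and ERG, a share near the 15.8% of protein-coding genes with a peak.

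Of 13 genes for partners and regulators of ETS factors, 8 (61.5%) had a strong peak, against 46.9% of protein-coding genes. YY1, a zinc finger factor, had 299 fragments and HCFC1, a coactivator recruited by GABP, had 197. TFAM, which maintains the mitochondrial genome and is a known GABP target, had 50, SP1 24, NFE2L2 23, SRF 19, CREB1 15 and NRF1 10. The peaks of YY1, NFE2L2, CREB1 and NRF1 also covered a start of another gene, which was AGPS for NFE2L2. The list cannot assign these peaks to either gene. MAPK3, MRTFA, MRTFB and the coactivators CREBBP and EP300 had 5 to 7 fragments and no strong peak. The consensus lay within 50 bp of the summit at 2 of the 13 genes, HCFC1 and MRTFA, beside the same 15.8%. Among protein-coding genes, the peaks ranked next to that of GABPA were the one shared by GATM and SPATA5L1, with 380 fragments and the consensus, and that of NCOA2, with 377 fragments and no consensus.

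**Figure D5:**
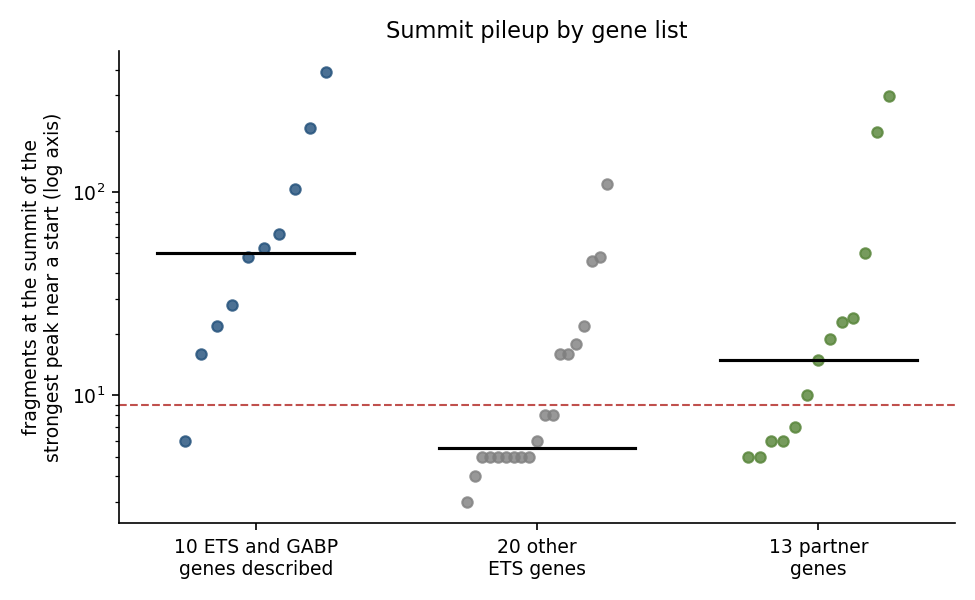
Fragments at the summit of the strongest ZBTB11 peak within 3 kb of a start (log axis) for the 10 genes described, the 20 other ETS genes and the 13 partner genes, 1 point per gene with a peak (ELF3 has none). Black lines are the medians, 50.5, 5.5 and 15 fragments with a gene without a peak at 0, and the dashed line is the median of 9 fragments over protein-coding genes.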

How the data were processed

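The 2 immunoprecipitated libraries were grouped by their sample titles. According to the study's methods, read pairs were aligned to hg38 with BWA and peaks were called with MACS for each antibody separately at a p-value below 0.05. The fold enrichment is a ratio that the authors deposited for each peak, and its p-value and q-value were deposited by the authors as −log10 values. The methods name an early MACS release, whereas the deposited layout is that of later ones, so the release used is uncertain. The antibodies were called independently, and whether Input entered the background is not given in the sources used here. The solved background was above its genome-wide value at 9 of the 10 strongest peaks, so fold enrichment is relative to a local level.

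Of the ZBTB11 list, chromosomes 1 to 22, X and Y were kept and read with Python 3.11.15 and pandas 2.3.3. The summit pileup and background were solved from fold enrichment and p-value with a Poisson model and a tolerance of 0.001 on the −log10 p, which left 0 peaks unsolved. The motif search was tested on simulated sequences. For the solver, fold enrichment and p-value were recomputed from solved pileups of ZBTB11 peaks and solved again. That shows the solution is recovered, but not that it equals the fragments the caller counted. Peaks were ranked by p-value, then fold enrichment. Starts and UTRs came from GENCODE release 44, and promoters from RefSeq. A summit's central 31-mer had 1 exact copy in the assembly for each of the 10 genes. With 1 library per group, p-values across genes were not computed. The genes and lists were chosen with earlier results of these data known. All 10 genes are named, and of the other lists, by rule, those whose strongest peak reached a p-value of 1e-05. The genes named in the lists with weaker or no peaks were added after their values were seen. Of the partner list, 1 gene is not reported here, and the counts leave it out. Protein sequences were not used here.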

Additional observations from a re-analysis of the deposited data

How the results depend on the processing

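No paired analysis was possible because ZBTB11 and IgG have 1 library apiece. There were 6 results and 19 alternatives, of which 2 motif settings were chosen after seeing the data. Counts were held to within 1.5 times the main count, the gene body rate to its Poisson interval and the IgG ratio to the interval given for it. The median pileup was held to a Poisson interval taken at 50.5 (37.5 to 66.5), which does not measure the spread between genes. By these rules 11 alternatives held and 8 moved. The main consensus count was 1, so any change to it counted as moved. The interval of the IgG ratio was wide (0.179 to 2.61), so its alternatives could hardly move. With MANE starts only, the median pileup of the 10 genes fell from 50.5 to 35 fragments, since ELF1, ELF2 and ETS1 carry their strongest peak elsewhere. The number of genes with the consensus near the summit was 1. It was 0 within 25 bp, 2 within 100 bp (GABPA and ELK4), 4 in the whole peak and 0 for CCGGAAG alone. In the same order, the shares of the strong peaks were 12.3%, 37.3%, 61.9% and 17.5%. Over all distinct strongest peaks of protein-coding genes they were 7.40%, 23.7%, 40.8% and 9.41%. With fewer bases required, the number of genes was 6 for GGAAG, which 56.2% of the strong peaks hold. For CGGAAG it was 2 (ELF1 and ELF2), and 28.2% of the strong peaks hold it. This count thus rests on the exact letters and window. Counting strong gene body peaks alone, their rate was 0 per 100 kb instead of 9.31. A window of 1 kb, a q-value of 0.05 or less and a fold enrichment of at least 5 left 9 genes with a strong peak, and MANE starts left 7. From GABPB2, with 62 fragments, downward, the intervals of neighbours overlapped, so the order there is a description and was not tested.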
